A study of Mus musculus with 9 samples.

Results

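The elastic fibre and lysyl oxidase genes were a set of 10 genes matched by symbol on mouse bead arrays: elastin (Eln), the fibrillins Fbn1 and Fbn2, the fibulins Fbln1, Fbln2 and Fbln5, the lysyl oxidases Lox, Loxl1 and Loxl2, and the microfibril glycoprotein Mfap5. All 10 had at least 1 probe, 23 probes in all, among 19058 genes with a probe, and 8 of them were among the 10028 genes tested. A gene was tested where at least 1 of its probes was detected on each of the 3 arrays of 1 or more groups (detection p under 0.05), and its brightest such probe stood for it. Fbn2 and Fbln5 had no such probe. Eln and Loxl2 passed through the YFP-positive arrays alone, Lox through eCSC and YFP-positive arrays, and Mfap5 through YFP-positive and adult arrays. A gene that passes through the group where its signal is high has to differ from the rest, so the counts below describe these genes and support nothing further.

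The study profiled 3 kinds of mouse cells, 3 samples each, all from a B6.129X1 strain carrying Gt(ROSA)26Sortm1(EYFP)Cos/J on a C57BL/6J background, in which Cre turns on a yellow fluorescent protein. The eCSCs were c-kit-positive, CD45-negative endogenous cardiac stem cells taken at passage 4. The YFP-positive cardiomyocytes (YfpCM) were flow-sorted out of left ventricular apex tissue, from mice recombined with a c-kit/cre lentivirus and given isoproterenol 28 days earlier (a drug that drives beta-adrenergic receptors and damages the muscle), although the sample titles call these samples in vitro. The normal adult cardiomyocytes (CMa) were isolated from mice of the same strain. The protocol field of every sample, eCSC and adult samples included, carries the text on a single isoproterenol injection of 200 mg per kg, while the design text ties it to the YFP-positive group, and whether the adult cells came from injected mice is not given in the sources used here. The sex and age of the mice, and whether replicates came from separate animals, are not given either, so that p-values reflect only how far these samples spread, and that spread may be technical. Each sample is bulk RNA of a cell preparation, in which fewer cells of a type and less RNA per cell cannot be told apart.

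Elastic fibres give stretchy tissues their recoil. Fibrillins assemble into microfibrils, on which the soluble elastin monomer (tropoelastin) is deposited with the help of fibulins, and lysyl oxidases, which are copper enzymes, oxidise lysines so that elastin and collagen chains become cross-linked. In the heart such fibres lie in the vessel walls, the valves, the endocardium and epicardium, and the matrix around the muscle cells, and their usual sources are fibroblasts, smooth muscle cells and endothelial cells rather than heart muscle cells.

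Each array detected 15326 to 19048 of its 45281 probes, with median raw signals of 93.6 to 117.9. Arrays of a group correlated at 0.975 to 0.992 over the probes that stood for the 10028 genes tested. No slide or scan record was given by which arrays could be split into batches, and 0 pairs of arrays held identical values. YFP-positive replicate 2 stood somewhat apart, with 16802 probes detected against 19048 and 19002 on the other arrays of its group and a mean correlation with the adult arrays of 0.921 against 0.876 and 0.880. Of 3 probes for Kit, which encodes c-kit, 0 were detected in the eCSC and adult groups, while in the YFP-positive group 2 were detected on at least 1 array and 1 on all 3. The 8 heart muscle markers (such as Myh6 and Actc1) were all detected on every YFP-positive and adult array, and 7 of the 8 were detected on no eCSC array. Values below are background-corrected, quantile-normalised log2 signals, differences are log2 differences ± SE from 1 limma model over the 9 arrays, and p-values are two-sided and adjusted (Benjamini-Hochberg) over all 10028 genes, with a call at an adjusted p under 0.05. Probes differ in how they bind, so levels are compared between groups for 1 probe and never between genes.

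Eln, which encodes tropoelastin, showed the largest difference of the 8 tested genes in both comparisons with YFP-positive cells. Its log2 signals were 11.80, 10.91 and 11.91 on the 3 YFP-positive arrays. They were 4.40, 4.62 and 4.48 on the eCSC arrays, where the probe was not above background, and 5.10, 5.38 and 4.71 on the adult arrays, where it was detected on 2 of 3. Every YFP-positive array was therefore far above every array of the other groups. Eln was at least 111-fold higher in YFP-positive cells than in eCSCs (adjusted p = 7.72e-12), where "at least" sets the mean of a bright group against the level at which probes become detectable on the arrays of a group with no detection. Such a value holds for the main processing alone and is no lower limit under other settings. For Eln it was 6.79 in log2, and the fitted difference ran from 4.80 to 7.41 over the settings. Against adult cells the log2 difference was 6.47 ± 0.25, or 88.8-fold (adjusted p = 4.90e-10), which ranked 1 of 10028 genes from the highest difference down, and 1 to 3 under the other processing settings in which Eln could be tested. The log2 difference of 0.57 ± 0.25 between adult cells and eCSCs did not pass the test (adjusted p = 0.0536). It did pass without YFP-positive replicate 2 (0.58, adjusted p = 0.0129), without adult replicate 3 (0.78, adjusted p = 0.0191), with array weights (0.69, adjusted p = 0.00573) and with only the 6 arrays compared (0.57, adjusted p = 0.0196). These are fitted values against a group not above background. A second Eln probe was dim. It was detected on 2 of the 3 YFP-positive arrays (raw signals of 131.2, 91.5 and 208.6) and on no other array.

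**Figure D1:**
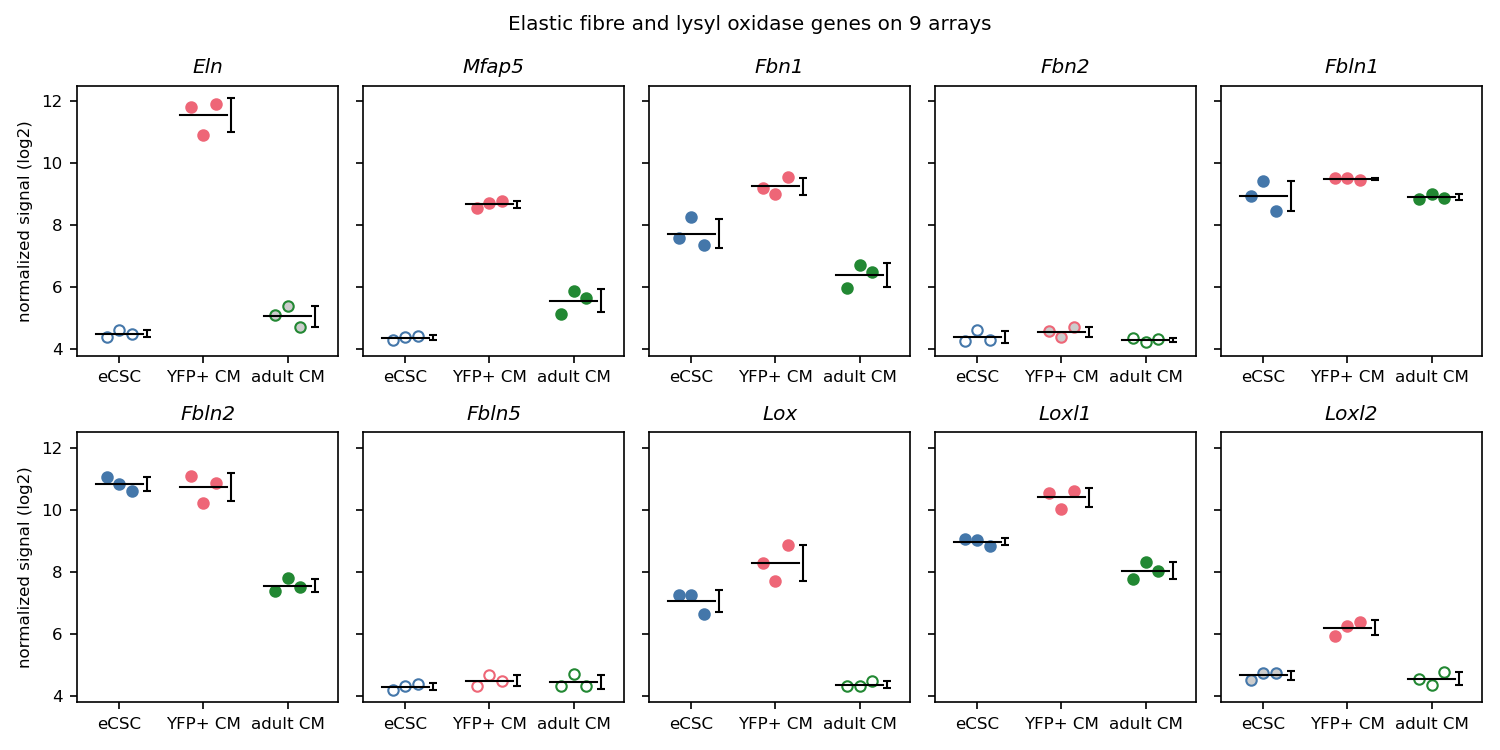
Log2 signal of the probe that stands for each of the 10 genes on each of the 9 arrays, in a panel per gene, with the group mean as a line and the SD as a bar (n = 3); point fill shows detection on all 3, some or none of a group's arrays. Eln lies at 10.91 to 11.91 on the YFP-positive arrays and at 4.40 to 5.38 on the other 6, while Fbn2 and Fbln5 stay near background in every group.

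The microfibril genes Fbn1 and Mfap5 were also higher in YFP-positive cells than in both other groups, but they ordered eCSCs and adult cells in opposite ways. Fbn1 encodes fibrillin-1, the main structural protein of microfibrils, whose human gene is mutated in Marfan syndrome. Its log2 signals were 9.20, 9.01 and 9.54 on YFP-positive arrays, 7.58, 8.25 and 7.35 on eCSC arrays and 5.98, 6.71 and 6.48 on adult arrays, and no groups overlapped. The YFP-positive level exceeded that of eCSCs by 1.52 ± 0.25 (2.87-fold, adjusted p = 7.49e-05) and that of adult cells by 2.86 ± 0.25 (7.24-fold, adjusted p = 7.81e-07). Adult cells were below eCSCs by a log2 difference of -1.33 ± 0.25 (adjusted p = 2.14e-04). With median scaling the differences from eCSCs were 0.84 in YFP-positive cells (adjusted p = 0.0241) and -2.23 in adult cells (adjusted p = 1.31e-05), and with no normalization between arrays 0.79 (adjusted p = 0.0439) and -2.36 (adjusted p = 9.88e-06). The other 2 Fbn1 probes were near background, with 1 of them detected on 1 eCSC array and the other on none.

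Mfap5, also called MAGP-2, encodes a small glycoprotein that binds fibrillins. Its log2 signals were 8.55, 8.70 and 8.77 in YFP-positive cells, 4.29, 4.41 and 4.43 in eCSCs, where it was not above background, and 5.15, 5.88 and 5.65 in adult cells, where it was detected on all 3 arrays. The YFP-positive arrays were the highest and the eCSC arrays the lowest, with no overlap. The YFP-positive level of Mfap5 exceeded that of eCSCs at least 15.2-fold (adjusted p = 9.03e-11) and 8.65-fold higher than in adult cells (3.11 ± 0.19, adjusted p = 2.66e-08). The adult level was also above that of eCSCs, at least 1.76-fold (adjusted p = 5.75e-05). Fbn2 encodes fibrillin-2, the fibrillin best known from embryonic microfibrils. The brighter of its 2 probes was detected on 1 YFP-positive array and on no other, and the other probe on none. Without the filter on dim probes its log2 difference was 0.17 ± 0.12 between YFP-positive cells and eCSCs (adjusted p = 0.387) and 0.27 ± 0.12 between YFP-positive and adult cells (adjusted p = 0.169, both over 19058 genes), which shows no more than that a difference was not detectable at this signal.

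The fibulins did not share 1 pattern. Fbln2 encodes fibulin-2, which binds fibrillin, tropoelastin and basement membrane proteins and is made in developing valves and vessels. Its log2 signals were 11.04, 10.83 and 10.59 in eCSCs, 11.09, 10.21 and 10.85 in YFP-positive cells and 7.36, 7.78 and 7.49 in adult cells. The eCSC and YFP-positive arrays overlapped, and both lay well above the adult arrays. Fbln2 was 9.71-fold lower in adult cells than in eCSCs (-3.28 ± 0.22, adjusted p = 7.15e-09), or -4.21 with median scaling, and 9.04-fold higher in YFP-positive than in adult cells (3.18 ± 0.22, adjusted p = 9.47e-08). Between YFP-positive cells and eCSCs the log2 difference of -0.10 ± 0.22 did not pass (adjusted p = 0.690), although it became a lower call with arrays scaled to their medians (-0.84, adjusted p = 0.0267). A second Fbln2 probe, ILMN_3132949, was called lower in YFP-positive cells than in eCSCs (-0.74 ± 0.25, adjusted p = 0.0162 over 18180 probes). The third, ILMN_2626153, gave -0.02 ± 0.25 (adjusted p = 0.951). Both of these probes were also lower in adult cells than in either other group, with ILMN_3132949 detected on 2 adult arrays and ILMN_2626153 on none.

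Fbln1 encodes fibulin-1, found in elastic fibres, basement membranes and blood plasma, and its probes disagreed. The brightest, ILMN_2870672, gave 8.95, 9.41 and 8.44 in eCSCs, 9.51, 9.52 and 9.46 in YFP-positive cells and 8.83, 9.0 and 8.89 in adult cells. The YFP-positive arrays lay just above the others, with the eCSC arrays spread widely around the adult ones. By this probe Fbln1 was called higher in YFP-positive cells than in eCSCs (0.56 ± 0.21, adjusted p = 0.0272), but the sign turned with median scaling (-0.15, adjusted p = 0.613) and with no normalization between arrays (-0.20, adjusted p = 0.532). The call was also lost without YFP-positive replicate 2 (0.55, adjusted p = 0.0579), and without eCSC replicate 1 or 3 or YFP-positive replicate 1 or 3. Against adult cells it was called higher by 0.59 ± 0.21 (adjusted p = 0.0317), a call lost without any one of the 6 arrays compared (adjusted p of 0.0538 to 0.0834). Adult cells and eCSCs differed by -0.03 ± 0.21 (adjusted p = 0.916), which became a lower call in adult cells with median scaling (-0.93, adjusted p = 0.00363) and with no normalization between arrays (-1.06, adjusted p = 0.00278).

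The other 3 detected Fbln1 probes were each called higher in adult cells than in eCSCs after quantile normalization, and for 2 of them the sign turned under the other scalings. ILMN_2497957 was higher in adult cells by 1.53 ± 0.19 (adjusted p = 3.46e-06 over 18180 probes) and in YFP-positive cells by 1.91 ± 0.19 (adjusted p = 4.66e-07). ILMN_2449644 was higher by 0.78 ± 0.20 (adjusted p = 0.00243) and 1.23 ± 0.20 (adjusted p = 6.00e-05), and ILMN_2728985 by 0.64 ± 0.17 (adjusted p = 0.00370) and 0.52 ± 0.17 (adjusted p = 0.0142). With median scaling the adult differences of ILMN_2449644 and ILMN_2728985 were -0.14 (adjusted p = 0.642) and -0.11 (adjusted p = 0.687), and their YFP-positive differences of 0.55 (adjusted p = 0.0673) and 0.22 (adjusted p = 0.392) were not called either. Both calls of ILMN_2497957 held with median scaling, and the adult one was lost with no normalization between arrays (0.56, adjusted p = 0.0831). None of these 3 was called between YFP-positive and adult cells (0.38, 0.45 and -0.12, with adjusted p of 0.116, 0.0716 and 0.608). Fbln1 is known to be spliced into variants with different ends, and which variants each probe binds is not given in the sources used here. The remaining 2 Fbln1 probes were detected on no array. ILMN_2497957, named by the annotation, was not among the 5 probes whose mean matched the authors' gene-level Fbln1 value. Fbln5 encodes fibulin-5, which ties tropoelastin and Loxl1 to microfibrils, and its only probe was detected on no array, with raw signals from 89.1 to 114.3.

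**Figure D2:**
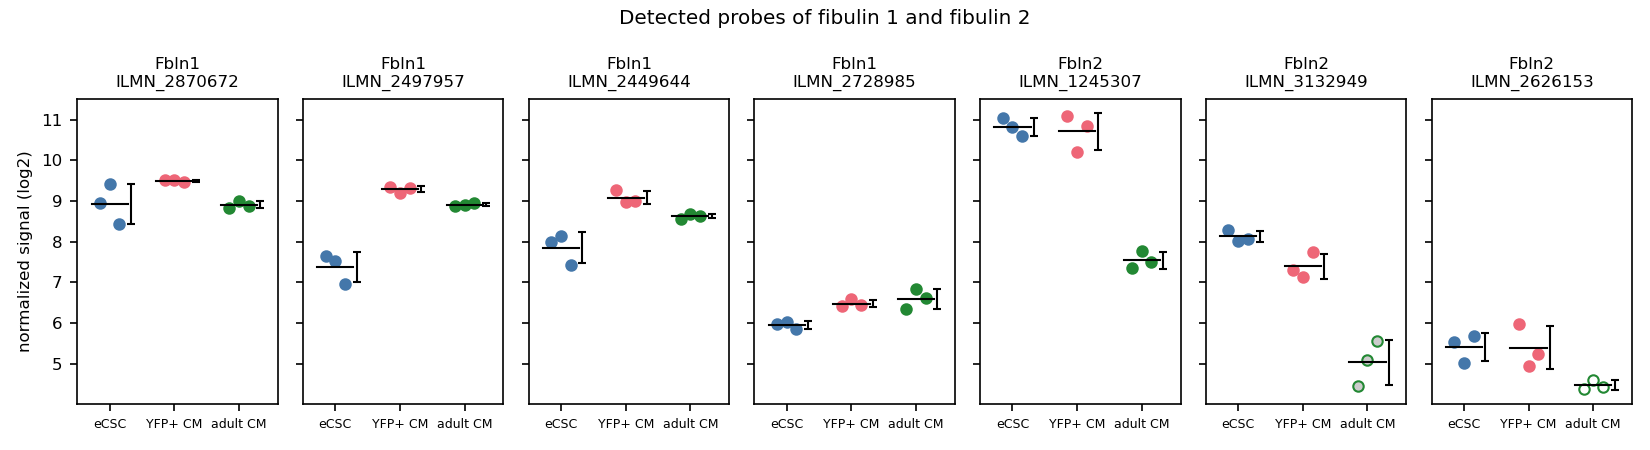
Log2 signals of the detected Fbln1 and Fbln2 probes on each array of the 3 groups, in a panel per probe, with the mean as a line and the SD as a bar (n = 3). For Fbln1, ILMN_2497957 lies at 6.97 to 7.64 in eCSCs and at 8.87 to 8.96 in adult cells, while for ILMN_2870672 the eCSC and adult arrays overlap (quantile-normalised values).

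RefSeq promoter windows of GRCm38.p6, from 250 bases before to 50 after a transcript start, were at hand for 4 of the 10 genes: Fbn1, Fbln1, Fbln2 and Fbln5. The windows of Fbn1 (chr2:125506389-125506688, minus strand) and Fbln2 (chr6:91212514-91212813, plus strand) are shown because both genes have 1 window and both were called lower in adult cells than in either other group. They are written 5′ to 3′ on the gene's strand, and capitals mark matches to the GC box, the binding motif of Sp1-type factors, searched as GGGCGG on both strands.
Fbn1 promoter: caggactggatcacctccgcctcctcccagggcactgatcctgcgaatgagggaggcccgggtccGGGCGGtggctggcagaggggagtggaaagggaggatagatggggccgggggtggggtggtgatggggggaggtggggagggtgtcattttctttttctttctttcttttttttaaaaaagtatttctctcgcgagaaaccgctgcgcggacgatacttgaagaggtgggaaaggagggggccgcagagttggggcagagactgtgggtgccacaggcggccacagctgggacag
Fbln2 promoter: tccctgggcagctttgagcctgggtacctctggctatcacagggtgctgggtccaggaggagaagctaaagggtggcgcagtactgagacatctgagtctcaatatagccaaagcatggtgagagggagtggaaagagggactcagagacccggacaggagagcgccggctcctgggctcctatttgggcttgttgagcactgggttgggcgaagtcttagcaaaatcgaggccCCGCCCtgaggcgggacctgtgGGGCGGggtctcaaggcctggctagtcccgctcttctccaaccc
Both windows were 60.3% G or C, against a median of 52.7% over all 32851 windows, with 14 CpG pairs in Fbn1 and 10 in Fbln2 against a median of 7. The Fbn1 window held 1 GC box, starting at position -185 from the transcript start, and the Fbln2 window 2, at -16 and 7. Such a match occurred in 35.7% of all windows. The TATA box (TATAAA, in 13.6% of windows), the AP-1 site (TGANTCA, 7.8%) and the SMAD box (CAGAC, 49.6%), each searched on both strands, had 0 matches in either window. A match is a description of letters and not of binding, and the absence of one says nothing of the factor.

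Lysyl oxidase genes were higher in YFP-positive cells than in both other groups at all 3 members, Lox, Loxl1 and Loxl2. Lox, the enzyme that cross-links both collagen and elastin, gave log2 signals of 8.29, 7.69 and 8.86 in YFP-positive cells, 7.24, 7.25 and 6.64 in eCSCs and 4.30, 4.30 and 4.48 in adult cells, where it was not above background on any array. The 3 groups did not overlap. Lox was at least 10.7-fold higher in YFP-positive than in adult cells (adjusted p = 5.02e-08) and at least 4.54-fold lower in adult cells than in eCSCs (adjusted p = 2.89e-07). The step from eCSCs to YFP-positive cells was 1.24 ± 0.26 (2.36-fold, adjusted p = 6.25e-04), and it was no longer called with median scaling (0.65, adjusted p = 0.102) or without normalization between arrays (0.60, adjusted p = 0.156).

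Loxl1, whose product is needed for elastin renewal in adult mice, gave 10.55, 10.03 and 10.60 in YFP-positive cells, 9.04, 9.01 and 8.84 in eCSCs and 7.76, 8.30 and 8.02 in adult cells, again in 3 separate ranges. It was higher in YFP-positive cells than in eCSCs by 1.43 ± 0.20 (2.69-fold, adjusted p = 1.63e-05), which came to 0.69 with median scaling and lost its call without normalization between arrays (0.64, adjusted p = 0.0918). It was 5.16-fold higher than in adult cells (adjusted p = 5.27e-07), and adult cells were below eCSCs by -0.94 ± 0.20 (adjusted p = 6.13e-04), or -1.89 with median scaling. A second Loxl1 probe was detected on no array. Loxl2 encodes a family member that cross-links collagen IV of basement membranes. Its brighter probe gave 5.93, 6.26 and 6.39 in YFP-positive cells, 4.50, 4.73 and 4.74 in eCSCs, where it was detected on 1 array, and 4.54, 4.36 and 4.76 in adult cells, where it was detected on none. Of the 3 groups, only the YFP-positive one had the probe detected on all its arrays. Loxl2 was higher there than in eCSCs by 1.54 ± 0.18 (adjusted p = 2.99e-06) and at least 2.52-fold higher than in adult cells (adjusted p = 7.11e-06), and the -0.10 ± 0.18 between adult cells and eCSCs did not pass (adjusted p = 0.615).

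Across the set, 7 of 8 tested genes were called higher in YFP-positive cells than in eCSCs and 0 lower. Of all 10028 genes, 34.4% were called higher, 38.6% lower and 73.0% in either direction. The median log2 difference was 1.48 over the 8 genes and -0.10 over all genes. Between adult cells and eCSCs, 1 of 8 (Mfap5) was called higher, 4 (Fbn1, Fbln2, Lox and Loxl1) lower and 3 not, with 35.8% of all genes called higher, 39.4% lower and 75.2% in either direction. The median was -0.52, against -0.05 over all genes. Between YFP-positive and adult cells all 8 tested genes were called higher, where of all genes 22.8% were called higher, 27.7% lower and 50.5% in either direction. Of the 8, 7 were also at least 2-fold higher, Fbln1 being the exception, where 12.5% of all genes were, and the median was 2.98, against -0.08 over all genes. The groups of arrays did not overlap for 7, 6 and 8 of the 8 genes in the 3 comparisons, and for 76.1%, 77.7% and 58.8% of all genes. The first and second comparisons share the eCSC arrays, and the third shares arrays with both. Median scaling moved the median of all genes to -0.49, -0.68 and 0.16 in the 3 comparisons, and under it the share of all calls that were higher went from 47.1%, 47.6% and 45.2% to 34.9%, 29.4% and 73.1%. Under it the counts for the 8 genes were 5 higher and 1 lower (Fbln2) for YFP-positive cells against eCSCs, 1 higher and 5 lower for adult cells against eCSCs, and again 8 higher for YFP-positive against adult cells. With no normalization between arrays they were 4 and 1, 1 and 5, and 8 and 0. The step from 8 to 7 called genes without YFP-positive replicate 2 was Fbln1 in the comparison with adult cells, and Eln then stood at 6.82 against adult cells.

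**Figure D3:**
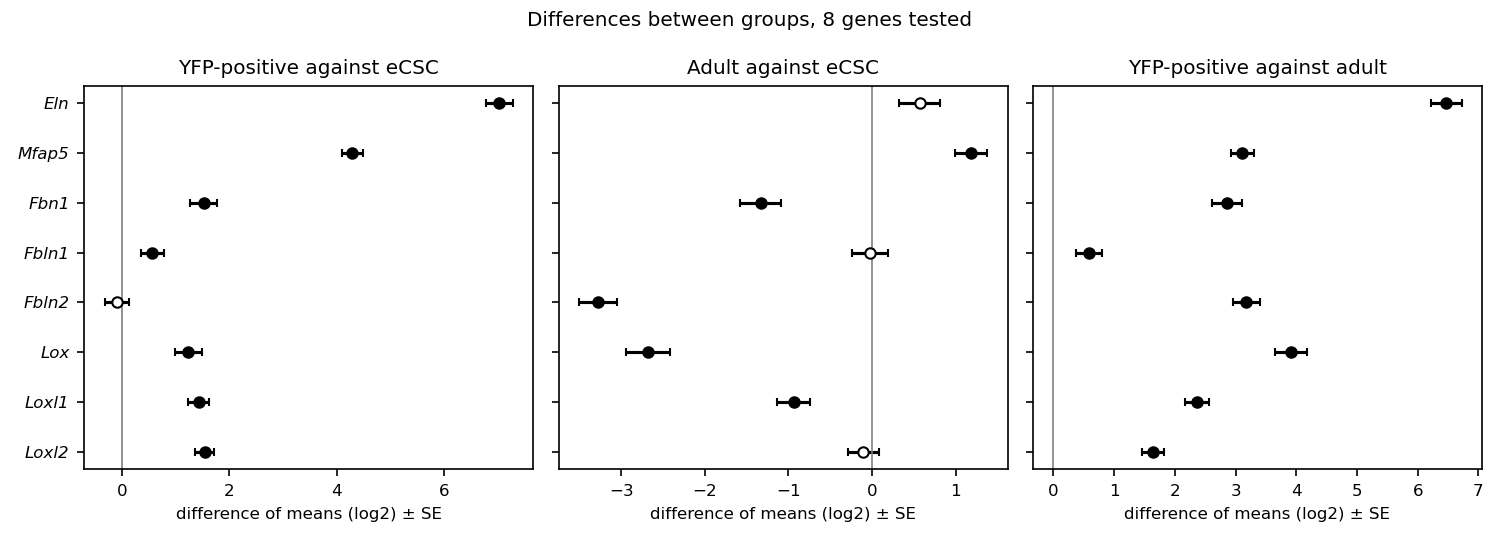
Log2 difference ± SE of each of the 8 tested genes in the 3 comparisons, with filled points where the adjusted p is under 0.05. All 8 points of YFP-positive against adult cells are filled and above 0, from 0.59 for Fbln1 to 6.47 for Eln, and those of adult cells against eCSCs run from -3.28 to 1.18; points against a group not above background are fitted values, and Fbln1 against eCSCs turns sign with median scaling.

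Other genes of the same fibres were taken from lists chosen with earlier results of these data known. Of 18 further elastic fibre and microfibril genes 12 were tested. In YFP-positive cells 7 were higher than in eCSCs, 2 lower and 3 not called (median 1.77), and 8 were higher than in adult cells, 1 lower and 3 not (median 1.33). Between adult cells and eCSCs 6 were higher, 4 lower and 2 not (median 0.29). Of all genes, 34.4%, 22.8% and 35.8% were called higher in these comparisons, in that order, and 38.6%, 27.7% and 39.4% lower. With median scaling the counts against eCSCs were 7 higher and 5 lower in YFP-positive cells and 4 higher and 5 lower in adult cells (median -0.18), and those of YFP-positive against adult cells stayed at 8 and 1. Mfap2 (MAGP-1), another fibrillin-binding glycoprotein, was at least 34.9-fold higher in YFP-positive cells than in eCSCs (adjusted p = 2.84e-11) and higher than in adult cells by 4.90 (adjusted p = 2.06e-09), where it was detected on 2 of 3 arrays. Emilin2, which encodes an elastin-interface glycoprotein, was detected on 1 of 3 eCSC arrays and was higher in both cardiomyocyte groups, by 4.66 in YFP-positive cells (adjusted p = 1.04e-10) and by 4.79 in adult cells (adjusted p = 5.83e-11). Ltbp4, a latent TGF-beta binding protein that works with fibulin-5, was higher by 3.48 in YFP-positive cells than in eCSCs (adjusted p = 1.18e-09). Mfap4, which was detected on 2 of 3 adult arrays, and Emilin1 were higher in YFP-positive than in adult cells by 2.47 (adjusted p = 2.05e-06) and 1.52 (adjusted p = 1.15e-05).

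Some genes of this list were not highest in YFP-positive cells. Loxl4, a further lysyl oxidase, was highest in eCSCs, with a difference of -3.39 in YFP-positive cells (adjusted p = 2.38e-10) and at least 10.4-fold lower signal in adult cells, where it was not above background (adjusted p = 7.71e-11). Efemp2 (fibulin-4), needed in mice for Lox to act on elastin, was lower than in eCSCs in both YFP-positive cells (-1.63, adjusted p = 2.29e-05) and adult cells (-3.83, adjusted p = 2.20e-09), and higher in YFP-positive than in adult cells by 2.19 (adjusted p = 5.79e-06). Adamtsl4 was higher in adult cells than in eCSCs by 2.96 (adjusted p = 9.80e-09) and lower in YFP-positive than in adult cells by a log2 difference of -1.08 (adjusted p = 7.95e-04).

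Lysyl oxidases need copper, and Lox also needs a cut by the protease Bmp1, which fibronectin (Fn1) helps to bring to its substrate. Of 7 genes of copper supply and activation 5 were tested. YFP-positive cells had 4 higher and 0 lower than eCSCs (median 0.71), and 3 higher and 0 lower than adult cells (median 0.57), while adult cells had 2 higher and 2 lower than eCSCs (median -0.03). Of all genes, 73.0%, 50.5% and 75.2% were called in either direction in these comparisons, so the number of calls does not set this list apart. Against eCSCs, YFP-positive cells were higher in the copper importer Slc31a1 (1.27, adjusted p = 1.00e-04), the copper chaperone Atox1 (0.98, adjusted p = 0.00194), Bmp1 (0.71, adjusted p = 0.00216) and the copper pump Atp7a (0.54, adjusted p = 0.0338), but with median scaling 1 of the 5 was called, and Bmp1 (-0.01) turned sign and lost its call (adjusted p = 0.977). With no normalization between arrays Slc31a1 lost its call as well (0.58, adjusted p = 0.0894). Between adult cells and eCSCs both higher calls (Atox1 and Slc31a1) were lost under both scalings, which left 2 lower (medians -0.54 and -0.67). The count of 3 higher calls in YFP-positive against adult cells was the same under both. Fn1 was 31.9-fold higher in YFP-positive than in adult cells (adjusted p = 5.26e-08) and lower in adult cells than in eCSCs by -4.90 (adjusted p = 6.29e-09). Bmp1 was lower in adult cells than in either other group, by -0.96 against eCSCs (adjusted p = 1.71e-04), and YFP-positive cells exceeded adult cells by 1.67 (adjusted p = 4.52e-06).

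Of 9 proteases listed for elastin breakdown, among them Mmp14 as an activator of Mmp2, 6 were tested. YFP-positive cells had 4 higher and 0 lower than eCSCs (median 0.96), and 3 higher and 0 lower than adult cells (median 1.59), while adult cells had 3 higher and 1 lower than eCSCs (median 0.57). With 73.0%, 50.5% and 75.2% of all genes called in either direction in these comparisons, the number of calls does not set the proteases apart. The gelatinase Mmp2 was 45.1-fold higher in YFP-positive cells than in eCSCs (adjusted p = 2.70e-11) and higher than in adult cells by 3.45 (adjusted p = 3.66e-08). Cathepsin K (Ctsk) was at least 15-fold higher in YFP-positive cells than in eCSCs (adjusted p = 7.33e-10) and higher than in adult cells by 2.66 (adjusted p = 4.85e-07). Mmp14, the membrane protease that activates Mmp2, was 22.1-fold higher in YFP-positive than in adult cells (adjusted p = 1.49e-09) and higher than in eCSCs by 0.78 (adjusted p = 0.00244), the latter not with median scaling (0.05, adjusted p = 0.887) and with the sign turned with no normalization between arrays (-0.01, adjusted p = 0.988). With median scaling 2 proteases rather than 4 were called higher in YFP-positive cells than in eCSCs. Ctsb was among the 4 (1.14, adjusted p = 3.98e-05) but not with median scaling (0.50, adjusted p = 0.0933). In adult cells Mmp14 was lower than in eCSCs (-3.69, adjusted p = 4.17e-10). Mmp2 (2.05, adjusted p = 9.04e-07), Ctsb (1.29, adjusted p = 9.55e-06) and Ctsk (at least 2.37-fold, adjusted p = 3.73e-05) were higher there. The adult call of Ctsb was lost with no normalization between arrays (0.52, adjusted p = 0.120).

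**Figure D4:**
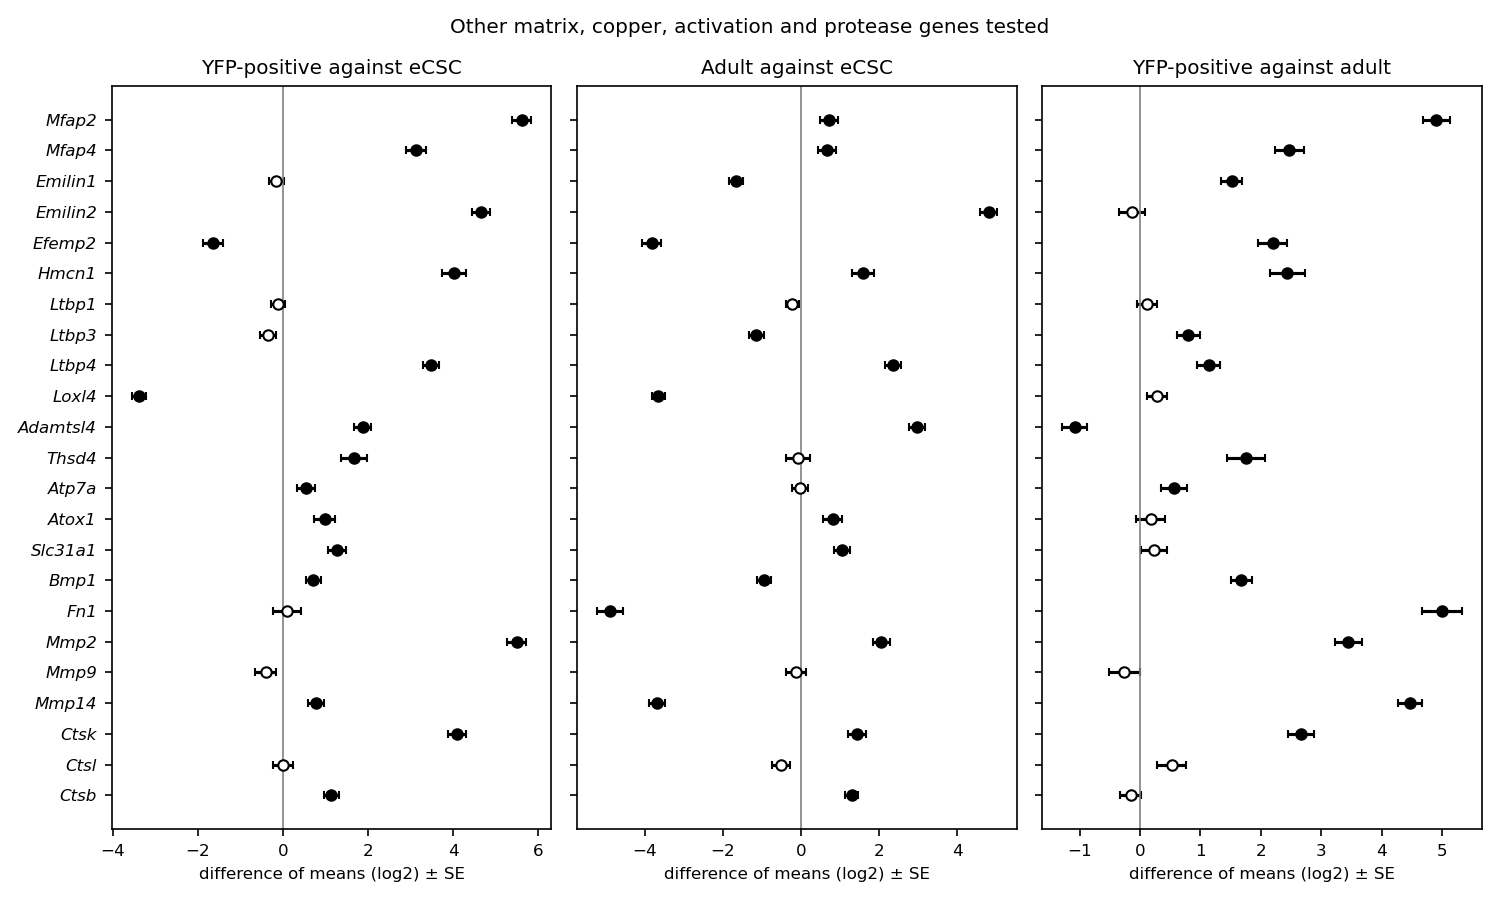
Log2 differences of the tested genes of the 3 further lists (12 elastic fibre and microfibril genes, 5 of copper supply and activation, 6 proteases) in the 3 comparisons, with filled points where the adjusted p is under 0.05. Mmp2 stands at 5.49 in YFP-positive cells against eCSCs and Loxl4 at -3.39; points against a group not above background are fitted values.

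Markers of other heart cell types also differed between the groups, to an extent that varied by list and comparison. Fibroblast markers, 10 genes, were detected on all 3 arrays for 9 genes in YFP-positive cells, 5 in adult cells and 5 in eCSCs, where Dpt, Lum, Tcf21 and Thy1 were detected on no array. Col3a1 and Ddr2 were detected on no adult array. Their summed linear signal was 8100 to 11463 in YFP-positive cells, 1949 to 2993 in adult cells and 628 to 721 in eCSCs, but Dcn alone made up 58.8% to 64.5% of the YFP-positive sums and 76.1% to 83.2% of the adult sums. Of the 10, 9 were called higher in YFP-positive cells than in adult cells and 0 lower, and 9 higher than in eCSCs and 1 lower. Between adult cells and eCSCs 5 were called higher, 4 (Col1a1, Col1a2, Col3a1 and Ddr2) lower and 1 not, with a median log2 difference of 0.23. For this and the next lists, 22.8% of all genes were called higher in YFP-positive than in adult cells. Against eCSCs, 34.4% of all genes were called higher in YFP-positive cells and 35.8% in adult cells.

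Endothelial markers (9 genes) summed to 12056 to 12451 in YFP-positive cells, 3454 to 4347 in adult cells and 246 to 268 in eCSCs. Of them 8, 9 and 1 were detected on all 3 arrays. Egfl7 made up 24.2% to 38.4% of the YFP-positive and 42.4% to 48.9% of the adult sums. YFP-positive cells had 8 called higher than adult cells and 1 (Kdr, -0.79) lower, a call lost with median scaling (-0.50, adjusted p = 0.137). Against eCSCs 8 were higher and 1 (Kdr) not called. Sums and detection of the next lists follow the same order of groups. Smooth muscle and pericyte markers (8 genes) summed to 9993 to 10731, 4134 to 6871 and 200 to 265, with 6, 6 and 1 detected, but Acta2 made up 88.5% to 91.7% of the YFP-positive and 73.9% to 89.3% of the adult sums. Of the 6 tested, 1 (Acta2) was called higher in YFP-positive than in adult cells, 1 (Kcnj8) lower and 4 not (median 0.15). The Kcnj8 call was lost with median scaling (-0.08, adjusted p = 0.845). Epicardial markers (5 genes) summed to 616 to 2033, 103 to 125 and 386 to 573, with 5, 0 and 1 detected. Upk3b made up 55.2% to 67.4% of the YFP-positive and Msln 79.6% to 83.8% of the eCSC sums. All 5 were called higher in YFP-positive than in adult cells, and 4 higher and 1 (Msln, -1.87) lower than in eCSCs. Leukocyte markers (8 genes) summed to 1364 to 2417, 519 to 667 and 344 to 449, with 7, 4 and 2 detected. Cd14 made up 45.4% to 60.7% of the eCSC sums. Of the 7 tested, 6 were called higher in YFP-positive than in adult cells and 1 (Csf1r) not. Against eCSCs 6 were higher and 1 (Cd14, -0.97) lower. The 8 heart muscle markers summed to 108520 to 125050 in YFP-positive and 126450 to 136120 in adult cells. Of them 0 were called higher in YFP-positive than in adult cells, 3 lower and 5 not. The 3 were Tnni3 (-0.54), Pln (-0.57) and Actn2 (-0.44). Lower calls numbered 2 with median scaling and 0 with no normalization between arrays. The part of these cell types in the elastic fibre differences was not tested.

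**Figure D5:**
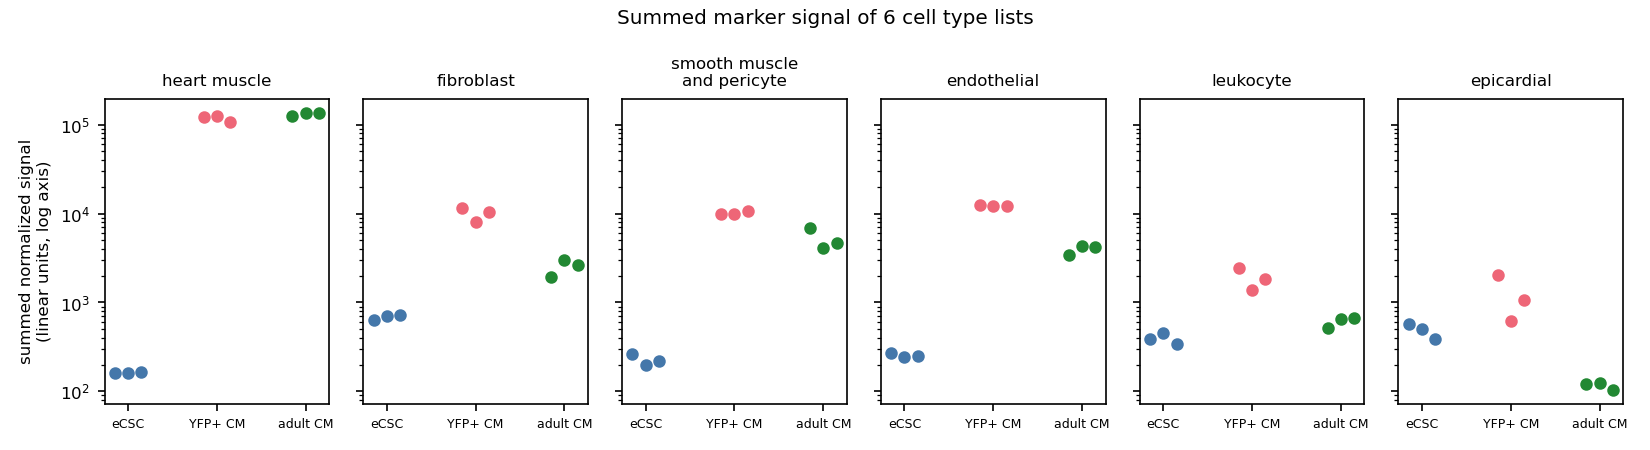
Summed linear signal of the 6 marker lists on each array, on a log axis, by group. Fibroblast, endothelial, smooth muscle and pericyte, leukocyte and epicardial sums are highest on the 3 YFP-positive arrays. The lowest epicardial sum among these arrays, 616, is close to the highest eCSC sum, 573. Heart muscle sums are 108520 to 136120 on the YFP-positive and adult arrays. They are 159 to 166 on the eCSC arrays, where 7 of the 8 genes were not detected, so that these sums are mostly background. Sums include undetected genes of every list, and 0 of the 5 epicardial genes were detected on all 3 adult arrays.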

How the data were processed

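Total RNA of 9 samples (3 eCSC, 3 YFP-positive, 3 adult) was run as biotinylated cRNA on Illumina mouse bead arrays, per the labels. The authors deposited raw probe intensities with no normalization, as far as the file's values show. The deposited detection value is a fraction that rises with signal, and 1 minus it was used as the detection p. The deposited series matrix is on a log2-like scale whose transformation is not given in the sources used here, and lumi 2.10.0 and R 2.15.3 stand in the submitters' processing notes. A further 27 columns of sample values, among them a normalized gene-level table in which 5 columns carry another replicate's number, were not used.

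The neqc function corrected background by normexp, using the detection p, added 16, quantile normalized the intensities and took log2. Values were fitted with lmFit and eBayes (limma 3.58.1 and version 1.17.8 of data.table, in R 4.3.3) over 3 group means and 9 arrays, as tested on simulated data. Tables and figures used Python 3.11.15, pandas 2.3.3, numpy 2.4.6, scipy 1.17.1 and matplotlib 3.10.9. Of 45281 probes, 34885 had 1 symbol in the annotation, 18 several and 10378 none, and symbols were updated to the RefSeq gene table of GRCm38.p6 (34807 by Entrez ID, 11 by accession, 67 kept). The annotation held no probe of Fbn1, Fbn2 or Loxl2. For these and 1 Fbln1 probe, 8 probes in all, the gene came from the authors' gene-level intensities: a gene's value there is the mean of its neighbouring probes, matched within 0.1 on all 9 arrays. Where such a match and the annotation both named a gene of several probes, 6738 of 7123 (94.59%) were the same. The matched means of Eln and Fbln1 left out ILMN_2498731 and ILMN_2497957, which the annotation gives to these genes.

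The 10 genes, the 3 further lists and the 6 marker lists were chosen with earlier results of these data known. Named were all 10 genes and their probes, and per comparison up to 4 genes of each further list with the smallest adjusted p, and for each tested gene the 3 genes most correlated with it. The genome build behind the arrays is not given in the sources used here. Same-numbered replicates did not deviate together (correlations of -0.064 to 0.120), so the numbers were not used as pairs. The scaling of single probes and of the further lists was checked after seeing the data. Alternatives changed the background correction, scaling, probe filter, probe choice, array weights, arrays fitted, block and replicates, and used the series matrix. The number of arrays limits the precision.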

Additional observations from a re-analysis of the deposited data

How the results depend on the processing

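Of 162 values per comparison (8 genes under the alternatives in which each could be tested), 149 kept their direction and side of the threshold for YFP-positive cells against eCSCs, 155 for adult cells against eCSCs and 154 for YFP-positive against adult cells. Fbln1 changed sign against eCSCs under median scaling (-0.15) and with no normalization between arrays (-0.20) in YFP-positive cells, and as the mean of its detected probes (0.73, adjusted p = 0.00149) in adult cells. Requiring detection on all 9 arrays left 4 genes to test and 3, 3 and 4 calls in the 3 comparisons, against 7, 5 and 8. Leaving out 1 array at a time gave 6 to 7, 5 to 6 and 7 to 8 calls. The cause of these changes was not tested beyond the smaller number of genes and arrays. With the replicate number as a block the counts of calls were again 7, 5 and 8. Whether the replicate numbers pair the samples is not given in the sources used here. Probes named by the annotation alone, an alternative chosen after seeing the data, left 6 genes and 5, 4 and 6 calls. Over all genes, YFP-positive against adult cells gave 5067 calls, against 3088 under median scaling and 2689 with no normalization. The largest difference also changed in size: without background correction Eln stood at 4.73 in YFP-positive against adult cells. In the deposited series matrix it stood at 4.58, against 6.47 in the main fit, and the reason was not tested. Folds given with "at least" are likewise values of the main fit. For Mfap5 in YFP-positive cells against eCSCs the fitted log2 difference fell to 2.29, where the at-least value was 3.93. In YFP-positive against adult cells it fell to 2.02 for Lox (at-least value 3.42) and 0.59 for Loxl2 (at-least value 1.33).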

Other observations

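As a description over the 9 arrays, which share their group structure, the genes with the highest Pearson correlation with each tested gene were listed. Those for Eln were Fosb (0.998), Map3k8 and Robo1, those for Mfap5 Nhsl2 (0.997), Cd40 and Olfml3, and those for Loxl2 Adamts12 (0.988), Tmem255a and Sertad1. For Fbn1 they were Nav1 (0.985), Cd248 and Dusp6, and for Loxl1 Dusp6 (0.992), App and Sdcbp2, so that Dusp6 stood in both lists. For Lox they were Csrp1 (0.993), Snhg18 and Tubb2b, for Fbln2 Rap1b (0.996), H2ac24 and H2ac7, and for Fbln1 Parva (0.951), Lcor and Cavin2. Among the 8 genes themselves the highest correlations were those of Fbn1 with Loxl1 (0.980) and of Eln with Mfap5 (0.972), and the lowest was that of Fbln2 with Mfap5 (0.222).

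On the raw intensity scale YFP-positive replicate 2 was the lowest of the 3 YFP-positive arrays for 8 of the 8 tested genes, and after normalization for 5 of the 8.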
